A study of Mus musculus with 2 samples.

Results

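The miR-26 and miR-101 families are 2 groups of microRNAs (miRNAs) known to repress Ezh2, the catalytic subunit of Polycomb repressive complex 2. They were taken as the 4 array names mmu-miR-26a, mmu-miR-26b, mmu-miR-101a and mmu-miR-101b (mmu for mouse), chosen by name out of 566 mouse miRNA names on the array. Earlier results of these data were known when they were chosen. LKS cells were compared with total bone marrow (total BM), with 1 single-colour Agilent miRNA array per group. LKS cells are lineage-negative marrow cells positive for Kit and Sca1, here prepared by magnetic enrichment followed by flow sorting, and they comprise haematopoietic stem cells together with other early progenitors. Both samples came from C57BL/6J mice and no treatment is named. The labels do not give the age, sex or number of mice. Because each group has 1 array, no difference below has a replicate check, and no p-value is given.

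A miRNA guides the Argonaute complex to messenger RNAs through its seed, bases 2 to 8 counted from its 5′ end, and the bound messages are destabilised and translated less. Ezh2 methylates histone H3 at lysine 27 and so keeps target genes silent. In the marrow it is known to support the self-renewal of haematopoietic stem cells and early B cell development. Repression of EZH2 by miR-101 and miR-26a was described in human tumour cells, and miR-26 is also known to act in myeloid differentiation of human cells.

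The mature sequences are shown because the members of each family are close to identical, which bears on what separate probes can tell apart. They are from RefSeq (mouse build GRCm38.p6), run 5′ to 3′, and have bases 2 to 8 in capitals. All 4 members matched a RefSeq mature miRNA. The array names carry no arm, and the arm was taken as the one these names have in current nomenclature, 5p for miR-26 and 3p for miR-101.
miR-26a: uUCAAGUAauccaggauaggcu
miR-26b: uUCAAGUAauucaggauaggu
miR-101a: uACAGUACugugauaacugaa
miR-101b: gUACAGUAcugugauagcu

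MiR-26a and miR-26b share the seed UCAAGUA. Aligned from their 5′ ends they were identical at 19 of 21 bases and differed by C11U and C21U, with the base of miR-26a first and positions counted from its 5′ end. The RefSeq entry of miR-101b starts 1 base earlier than that of miR-101a, so the letters at bases 2 to 8 are UACAGUA for miR-101b and ACAGUAC for miR-101a. With that base set aside, 17 of 18 aligned bases were identical and the other was A16G, with the base of miR-101a first. Probe sequences were not used here, so how far the probe of a member also captures its family partner was not tested.

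The same mature miR-26a is made from a pair of genes, so its signal cannot be divided between them. In GRCm38.p6 it lies at chr9:119031811-119031832 (plus strand, Mir26a-1) and at chr10:126995543-126995564 (plus strand, Mir26a-2). Mature miR-26b lies at chr1:74394324-74394344 on the plus strand. These 3 miR-26 genes lie within the spans of Ctdspl, Ctdsp2 and Ctdsp1, genes of small C-terminal domain phosphatases, so each sits in a different member of that gene family. Mature miR-101a lies at chr4:101346957-101346977 on the minus strand, within the span of the long non-coding RNA gene E130102H24Rik. Mature miR-101b lies at chr19:29135338-29135356 on the plus strand, within the span of Rcl1. Exons and introns were not given in the annotation used, and since no build is named in the array files, these positions are RefSeq's.

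The hairpins of Mir26b, Mir101a and Mir101b are shown with the mature member in capitals, because the opposite arms of Mir26b and Mir101a were also on the array and because the end of miR-101b is set by its annotation.
Mir26b: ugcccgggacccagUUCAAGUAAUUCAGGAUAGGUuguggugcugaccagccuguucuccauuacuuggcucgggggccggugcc
Mir101a: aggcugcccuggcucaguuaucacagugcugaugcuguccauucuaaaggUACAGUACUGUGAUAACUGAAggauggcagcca
Mir101b: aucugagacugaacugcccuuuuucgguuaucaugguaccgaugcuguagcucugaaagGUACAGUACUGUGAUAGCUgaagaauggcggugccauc
The 3 hairpin bases that follow mature miR-101b are gaa, the same letters with which mature miR-101a ends.

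Both miR-26 members were detected in LKS cells and in total BM, while the miR-101 members lay at or below detection. Values are the deposited signals in intensity units, each with its deposited error, which covers technical error on that array only. Probes differ in affinity, so a brighter probe need not mean a more abundant miRNA. Of the 4 members, 2 were detected on both arrays, 1 in LKS cells only and 1 on neither array. Across all 566 mouse names, the shares in these classes were 16.4%, 0.883% and 73.5%, and a further 9.19% were detected in total BM only.

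MiR-26a, reported to repress EZH2 in human cells, read 138 ± 10.7 in LKS cells against 213 ± 16.1 in total BM. MiR-26b, which carries the same seed, read 63.9 ± 5.45 in LKS cells against 102 ± 8.04 in total BM. As deposited, both were thus dimmer on the LKS array, with signals that did not overlap within their errors. The deposited errors were 7.75% and 7.55% of the miR-26a signal in LKS cells and total BM, and 8.52% and 7.89% of the miR-26b signal. In bulk samples such as these, fewer cells that carry a miRNA and less of it per cell cannot be told apart.

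The LKS array as a whole was dimmer, and the miR-26 signals are set against that. Both arrays detected 93 mouse miRNAs, and in the signals as deposited their log2 ratios of LKS over total BM had a median of -0.65. Without scaling, the log2 ratio was -0.62 ± 0.16 for miR-26a and -0.67 ± 0.17 for miR-26b, where ± is the error propagated from both signals. These correspond to signals 1.54-fold and 1.59-fold lower in LKS cells. Both ratios therefore lay close to the median of the shared miRNAs.

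**Figure D1:**
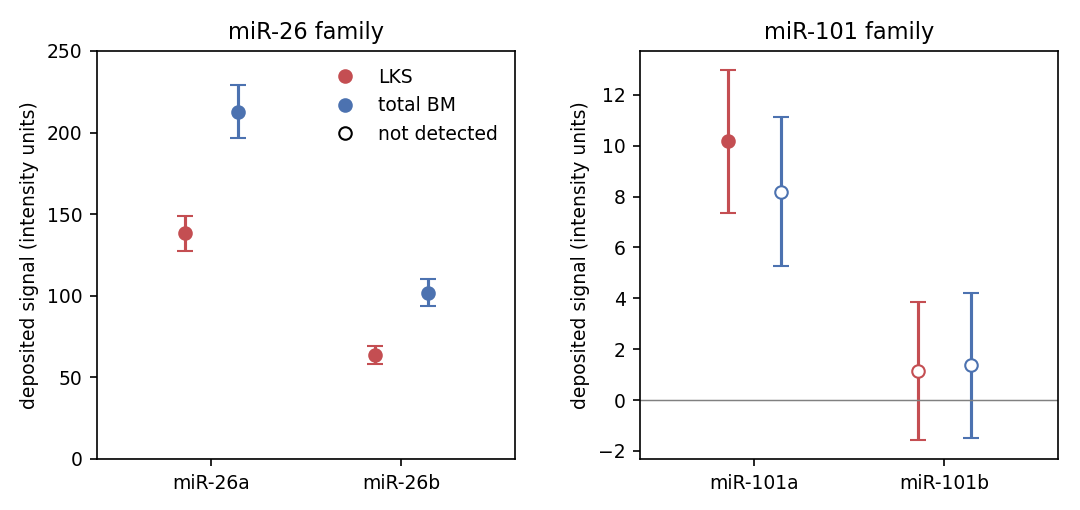
Deposited signal in intensity units (vertical axes, a separate scale for each family) of the 4 members in LKS cells and total BM; bars are the deposited errors, and open points mark signals that were not detected. MiR-26a and miR-26b are dimmer on the LKS array (138 and 63.9 against 213 and 102), and the error bars of miR-101a and of miR-101b overlap between the arrays.

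The signals of each array were then scaled to the 75th percentile of its 93 shared miRNAs, 242 on the LKS array and 399 on total BM, which added 0.72 to every log2 ratio. After scaling, miR-26a had a log2 ratio of 0.10 ± 0.16, a 1.07-fold difference with a range over 2 errors of 0.864-fold to 1.33-fold. MiR-26b had a log2 ratio of 0.05 ± 0.17, a 1.04-fold difference with a range of 0.821-fold to 1.31-fold. Neither scaled difference exceeded its technical error, and both ranges lie within 2-fold. These errors and ranges come from the 2 signals of each miRNA and leave out any error of the scaling.

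Neither miR-26 member reached a 2-fold difference in either direction. Among the 93 shared miRNAs, 17 (18.3%) passed 2-fold upwards in LKS cells, another 17 (18.3%) passed it downwards, and the remaining 59 (63.4%) differed by less. The scaled log2 ratios of all 93 had a median of 0.07 and quartiles of -0.66 and 0.69, with extremes of -5.06 and 4.79. In that order 44 miRNAs had a higher ratio than miR-26a and 48 a lower one. For miR-26b, 47 were higher and 45 lower. The pair thus stood in the middle of the shared miRNAs, and 2 miRNAs lay between them.

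**Figure D2:**
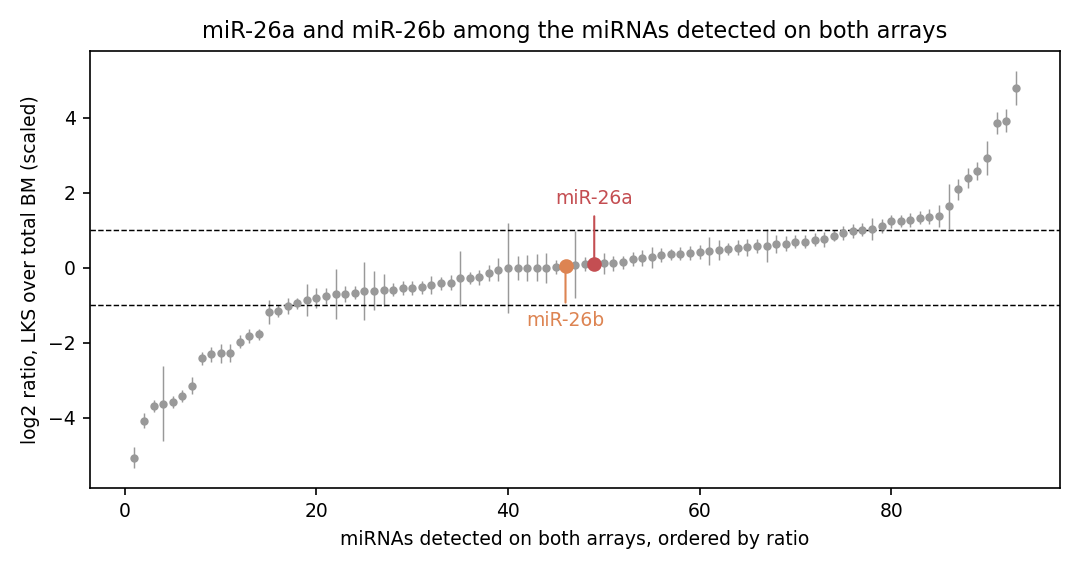
Scaled log2 ratio of LKS over total BM (vertical axis) for the 93 miRNAs detected on both arrays, ordered by ratio (horizontal axis); bars are the propagated technical errors and dashed lines mark 2-fold. MiR-26a (0.10) and miR-26b (0.05) lie beside the median of 0.07.

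The difference between the miR-26 members does not depend on a scaling factor for each array, since any factor common to an array cancels. The log2 ratio of miR-26a exceeded that of miR-26b by 0.05 ± 0.23, with a range over 2 errors of -0.41 to 0.51. No difference between the family partners was detectable at this error, and the range leaves room for a difference of up to 1.42-fold. Both come from different genes and share the seed and most other bases.

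The sign of the miR-26 ratios followed the choice of scaling. It was negative for both members without scaling and in the authors' deposited value table (-0.51 for miR-26a and -0.52 for miR-26b). Scaling on the 6 non-miRNA probes detected on both arrays also gave negative ratios (-0.13 and -0.18). The unscaled log2 ratios of these 6 probes ran from -1.02 to -0.27. The sign was positive for both members with median scaling (0.35 and 0.30), with quantile normalization (0.26 and 0.32) and with recentred background (0.12 and 0.11). With detection taken as a signal above 3 errors it was 0.01 and -0.04. Scaling on all mouse miRNAs, detected or not, gave 2.22 and 2.17. That scaling rests on an LKS percentile of 1.12, which is below the lowest detected LKS signal of 2.91, and it moved the median of the shared miRNAs to 2.19. Relative to the shared median, the miR-26 ratios stayed between -0.16 and 0.29 in the main setting and under the 8 alternatives. The ratio of miR-26a minus that of miR-26b was -0.07 with quantile normalization. It was 0.01 with recentred background and in the deposited value table, and 0.05 in the other settings.

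**Figure D3:**
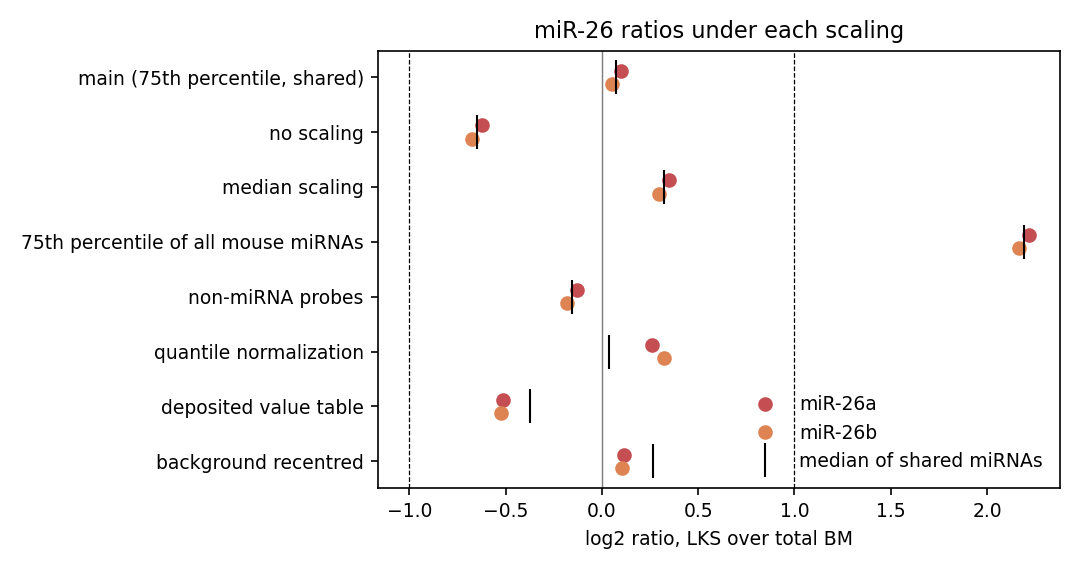
Log2 ratio of LKS over total BM (horizontal axis) of miR-26a and miR-26b under the main scaling and 7 alternatives (vertical axis); black ticks are the median of the shared miRNAs in each, and dashed lines mark 2-fold. The members move with the median, from -0.62 and -0.67 without scaling to 2.22 and 2.17 when all mouse miRNAs set the scale.

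By ratio alone, which over 2 samples is a loose measure of likeness, the 3 shared miRNAs nearest to miR-26a were miR-18a, miR-30a and miR-25, with log2 ratios of 0.09, 0.12 and 0.12. The 3 nearest to miR-26b were miR-103 (0.03), miR-33 (0.07) and miR-18a (0.09). The signal of miR-33 was faint, 5.41 in LKS cells against 8.49 in total BM, and its ratio had an error of 0.89.

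MiR-101a, whose human counterpart is known to repress EZH2 in tumour cells, was detected in LKS cells only, but its signals did not separate the samples. It read 10.2 ± 2.81 in LKS cells against 8.20 ± 2.91 in total BM. The difference of 1.99 intensity units was 0.49 of the combined error, and its range over 2 combined errors ran from -6.11 to 10.1. The signal was 3.62 times its error in LKS cells and 2.82 times its error in total BM.

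The detection call of miR-101a was not a simple cut on signal. In total BM, 4 undetected mouse miRNAs had a higher signal than miR-101a and 10 detected ones had a lower signal. In LKS cells its signal exceeded those of all 468 undetected names and of 9 of the 98 detected names. No label or file header states the rule behind the deposited call.

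The 2 arrays also differed in their background level. The median signal of undetected mouse miRNAs was -5.55 on the LKS array and -3.02 on total BM. Measured from these medians, miR-101a was at 15.7 in LKS cells against 11.2 in total BM, a difference of 4.52 or 1.12 combined errors. With each signal divided by its array's 75th percentile instead, the difference was 1.57 combined errors. The lower bound of the scaled excess, with the total BM signal raised by 2 of its errors, was 1.20-fold. This bound leaves out the error of the LKS signal. Without scaling the same calculation gave no bound above 1. A difference in miR-101a was not detectable at this signal.

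MiR-101b was detected on neither array. It read 1.14 ± 2.73 in LKS cells against 1.36 ± 2.87 in total BM, which is 0.42 and 0.47 times the error. The difference was -0.22 intensity units, or -0.06 combined errors, with a range over 2 combined errors of -8.13 to 7.69. No fold is given because both signals were below detection. Measured from the median of undetected names, miR-101b stood at 6.69 in LKS cells and 4.38 in total BM, and 424 of the 468 undetected names on the LKS array and 355 of the 421 on total BM had a lower signal.

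**Figure D4:**
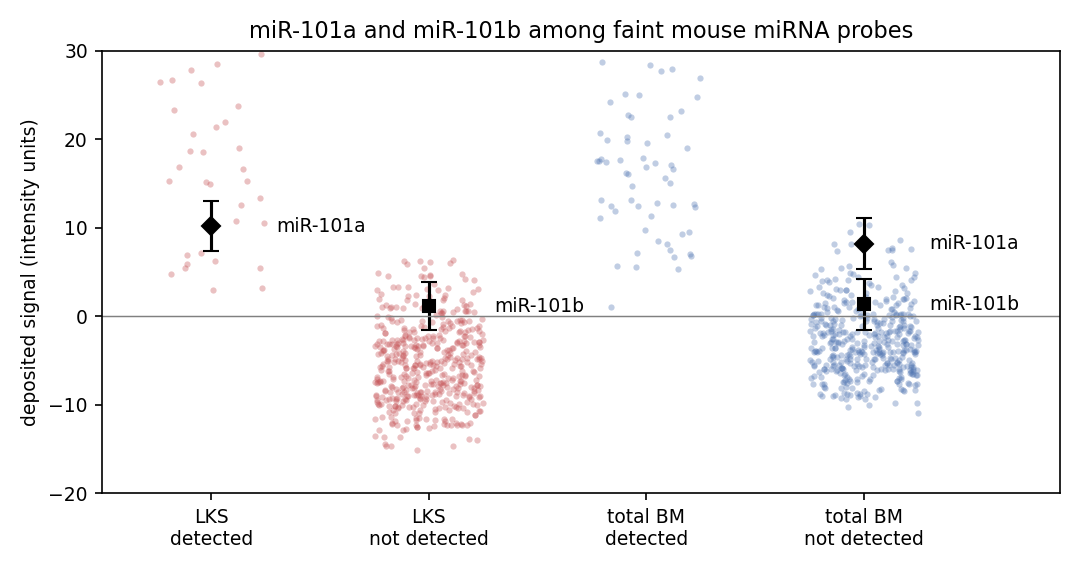
Deposited signal in intensity units (vertical axis, shown from -20 to 30) of faint mouse miRNA probes, split by array and by detection call; each point is a miRNA, and black symbols are miR-101a and miR-101b with their deposited errors. MiR-101a lies among faint detected names in LKS cells (10.2) and near the top of the undetected names in total BM (8.20).

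The authors' deposited value table, which holds a log2-like transform of the same signals, gave both miR-101 members a higher value in LKS cells. For miR-101a these values were 3.78 in LKS cells against 3.30 in total BM, a difference of 0.48. For miR-101b they were 2.65 in LKS cells against 2.18 in total BM, a difference of 0.47, although its signal was slightly lower in LKS cells. The sign for miR-101b thus turned between the deposited tables. The same held for 147 of the 416 names detected on neither array, which had a lower LKS signal and a higher LKS value.

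The opposite arms of the hairpins were measured for miR-26b and miR-101a. The array name miR-26b*, the minor arm of Mir26b, read -0.34 ± 1.91 in LKS cells against 1.29 ± 2.02 in total BM. The name miR-101a* read -7.95 ± 1.91 in LKS cells against -6.52 ± 2.01 in total BM. Neither arm was detected on either array, so of Mir26b only the arm in capitals above gave a detected signal.

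No array miRNA outside the miR-26 pair shares bases 2 to 8 with a member in RefSeq. MiR-144, which is produced in red cell precursors, shares bases 2 to 7 (ACAGUA) with miR-101a and is shown for that reason, with bases 2 to 8 in capitals.
miR-144: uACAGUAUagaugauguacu
Its signal was -6.84 ± 2.70 in LKS cells, not detected, and 17.7 ± 3.12 in total BM, detected. That made it at least 3.67-fold lower in LKS cells after scaling and at least 6.06-fold lower in the signals as deposited. Of the miRNAs with the core ACAGUA, the detected one was thus miR-101a in LKS cells and miR-144 in total BM, while the miR-101a signals themselves were not told apart. MiR-582-5p, which shares bases 2 to 7 with the RefSeq entry of miR-101b, was detected on neither array (-0.07 ± 2.70 in LKS cells and 1.24 ± 2.85 in total BM).

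Other miRNAs reported to repress Ezh2 in various tissues were taken as a list of 15 names, comprising 8 let-7 members, miR-98, miR-25, miR-30d, miR-124, miR-138, miR-214 and miR-217. Of these, 10 were detected on both arrays, 1 in LKS cells only and 4 on neither array. Across all 566 mouse names, the shares in these classes were 16.4%, 0.883% and 73.5%. Among the 10, 2 passed 2-fold upwards in LKS cells, 0 passed it downwards and 8 differed by less, beside 18.3% of shared miRNAs called in each direction. Their median log2 ratio was 0.64, against 0.07 for all 93 shared miRNAs, and 8 of the 10 lay above that overall median. Those above it were let-7a, let-7b, let-7c, let-7d, let-7f, let-7g and let-7i (0.14 to 1.37), and miR-25 (0.12). MiR-98 (0.005) and miR-30d (-0.28) lay below it. The raised list median thus came from related let-7 names, in a list drawn up with earlier results of these data known. These were not evenly raised, since let-7g (0.14) lay close to the overall median. Without scaling the list median was -0.08, against -0.65 for all, and 0 members passed 2-fold upwards and 1 passed it downwards. Among all 93 shared miRNAs, 7 passed 2-fold upwards without scaling and 36 passed it downwards.

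The list members at least 2-fold higher after scaling were let-7b and let-7c, which belong to the let-7 family known to promote differentiation. Let-7b read 540 ± 48.9 in LKS cells against 440 ± 39.6 in total BM, with a scaled log2 ratio of 1.02 ± 0.18. Let-7c read 376 ± 34.4 in LKS cells against 241 ± 22.3 in total BM, with a scaled log2 ratio of 1.37 ± 0.19. Let-7e, which is outside the count of 10 because it was detected in LKS cells only, read 40.2 ± 4.85 there against 1.30 ± 2.87 in total BM. With its total BM signal raised by 2 errors, let-7e was 9.42-fold higher in LKS cells after scaling and 5.71-fold higher without it. These bounds leave out the error of its LKS signal. MiR-30d, the member lower by 2-fold without scaling, read 63.8 ± 5.35 in LKS cells against 128 ± 9.60 in total BM, with a log2 ratio of -0.28 ± 0.16 after scaling and -1.003 before it. The 4 names detected on neither array were miR-124, miR-138, miR-214 and miR-217, so among these 15 names the signal came from the let-7 family with miR-98, miR-25 and miR-30d.

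Marker miRNAs, from lists drawn up with earlier results of these data known, were set against the sample labels as a description and not as a test. Over all 566 mouse names, 9.19% were detected in total BM only, 0.883% in LKS cells only and 73.5% on neither array, and 18.3% of the shared names passed 2-fold in each direction. All 3 erythroid markers (miR-451, miR-144 and miR-486) were detected in total BM only, and their signals summed to -10.6 in LKS cells against 309.6 in total BM. The neutrophil marker miR-223 and the lymphoid marker miR-342-3p passed 2-fold downwards in LKS cells, and lymphoid miR-150 was detected in total BM only. Of 6 stem and progenitor markers, 5 passed 2-fold upwards in LKS cells and 1 was detected there only. Markers of stroma (4), muscle (3), liver (1) and neurons (2) were detected on neither array, as were most names.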

How the data were processed

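Total RNA from 1 LKS and 1 total BM sample was labelled with Cy3, per the labels' protocols. The authors deposited a table of background-subtracted linear signal intensity per name, not scaled between arrays, with its error and a detection call, and a second table of log2-like values, which ranked all 576 miRNA names as the signals did. No label or file header names the scanner, the extraction software or the constants of that transform.

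The signals of each array were scaled to the 75th percentile of its mouse miRNAs detected on both arrays, and log2 ratios taken as LKS minus total BM (Python 3.11.15, numpy 2.4.6, pandas 2.3.3). Errors were propagated from the deposited errors. A call was a 2-fold difference. The counting code was run on simulated data with planted changes larger than 2-fold and noise smaller than the deposited errors. That run checks the code and not the counts given here. For a miRNA detected on 1 array, the bound divides by the dimmer signal plus 2 of its errors, or the lowest detected signal if higher. It leaves out the error of the brighter signal. Named miRNAs were the 4 members, their minor arms, names sharing their seeds, the list of other Ezh2 miRNAs (those 2-fold apart or detected on 1 array) and the 3 nearest ratios; miR-30d was named after its values were seen. Members and lists were chosen with earlier results of these data known. The arrays' number limits precision: with 1 per group, the spread between animals is unknown.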

Additional observations from a re-analysis of the deposited data

How the results depend on the processing

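No paired analysis was possible because LKS and total BM had 1 array each, and leaving out an array would leave no comparison. The miR-26 log2 ratios moved by more than their technical error under 6 of 8 alternatives. For miR-26a and miR-26b they were -0.62 and -0.67 without scaling, 0.35 and 0.30 with median scaling, 2.22 and 2.17 with the 75th percentile of all mouse miRNAs, -0.13 and -0.18 on non-miRNA probes, 0.26 and 0.32 with quantile normalization, and -0.51 and -0.52 in the deposited value table. They moved less with recentred background (0.12 and 0.11) and with detection taken as signal above 3 errors (0.01 and -0.04). The log2 bound for miR-101a, 0.26, became 2.38 with the percentile of all mouse miRNAs and 1.04 without the 2 errors added to the total BM signal. That value divides by the undetected total BM signal itself, so it is the plain ratio of the signals and not a bound. Without scaling it gave no bound above 1. It was not computed under quantile normalization, which covered only miRNAs detected on both arrays, or in the deposited value table, which holds no errors. The counts of 17 higher and 17 lower became 7 and 36 without scaling, 77 and 7 with the percentile of all mouse miRNAs, 7 and 28 in the deposited value table, 28 and 27 at 1.5-fold and 7 and 11 at 4-fold. The brighter part of the shared miRNAs, a smaller set than the 93, held 7 higher and 13 lower. Signal over background limits miR-101a and miR-101b, whose signals were at most 3.62 times their errors.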
